A study of Mus musculus with 12 samples.

Results

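Expression was followed for 7 mouse liver genes known for higher levels under the continuous, female-type pattern of growth hormone: A1bg, Cyp2b9, Cyp2b13, Cyp3a16, Cyp3a44, Cyp2a4 and Hao2. Members were matched by the gene symbol of the array platform, each gene being read from a probe set that carries a single symbol. This gave values for 6 of the 7 genes, out of 19935 genes with such a probe set. Cyp2a4 is covered only by a probe set that carries several symbols and has no value here. Whole-liver RNA was hybridised to an Affymetrix array with probes along whole transcripts, the Mouse Gene 1.0 ST. The mice were C57BL/6, 3 months old, and all had been ovariectomized and left to recover for 1 week, so wild type controls also lacked ovarian oestrogen. MOER mice have oestrogen receptor alpha at the membrane only, ERKO mice are knockouts of this receptor, and wild type mice have the intact receptor. Each genotype was given PPT, which selectively activates oestrogen receptor alpha, as 100 µg daily for 3 days, or 0.1 mL of oil as placebo. The 6 groups were therefore MOER with PPT, MOER with oil, ERKO with PPT, ERKO with oil, wild type with PPT and wild type with oil, with 2 arrays in each and 12 arrays in all. Each array held the pooled RNA of 3 animals. The labels give neither how the membrane receptor is expressed in MOER mice nor whether the repeat used separate animals. The p-values therefore reflect the spread between arrays, which may be technical.

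In rodents the pituitary releases growth hormone in spaced pulses in males and more evenly in females. The liver receives the hormone through its receptor Ghr, the kinase Jak2 and the transcription factor Stat5b, and the pattern of the signal sets which of the female-biased or male-biased genes are transcribed. Cyp2b9, Cyp2b13, Cyp3a16, Cyp3a44 and Cyp2a4 encode cytochrome P450 enzymes, haem proteins that oxidise steroids and foreign compounds. Hao2 encodes a peroxisomal oxidase of hydroxy acids, and A1bg a secreted plasma glycoprotein of the immunoglobulin superfamily.

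The 5 promoters below are shown because they belong to 2 pairs of genes with near-identical promoters whose levels came apart in these livers, and to A1bg, the gene with the largest change with PPT. Each runs 5′ to 3′ over the 250 bases before the annotated start (RefSeq, GRCm38.p6), and all 7 genes had an entry. Cyp2b9 lies on the plus strand (chr7:26173159-26173408) and so does Cyp2b13 (chr7:26061245-26061494). Cyp3a16 (chr5:145469724-145469973), Cyp3a44 (chr5:145805875-145806124) and A1bg (chr15:60921271-60921520) lie on the minus strand. In the first 4 sequences capitals mark the bases that differ within the pair, and in A1bg they mark motif matches.
Cyp2b9: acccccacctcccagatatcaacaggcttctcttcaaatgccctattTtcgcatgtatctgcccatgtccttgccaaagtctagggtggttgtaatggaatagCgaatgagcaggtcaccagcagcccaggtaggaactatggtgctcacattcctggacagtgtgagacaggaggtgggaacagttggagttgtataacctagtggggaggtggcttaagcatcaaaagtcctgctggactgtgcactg
Cyp2b13: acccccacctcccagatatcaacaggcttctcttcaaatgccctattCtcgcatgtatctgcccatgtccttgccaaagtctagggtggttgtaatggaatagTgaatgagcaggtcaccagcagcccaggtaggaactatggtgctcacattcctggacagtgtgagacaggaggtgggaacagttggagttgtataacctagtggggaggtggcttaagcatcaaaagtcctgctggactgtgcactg
Cyp3a16: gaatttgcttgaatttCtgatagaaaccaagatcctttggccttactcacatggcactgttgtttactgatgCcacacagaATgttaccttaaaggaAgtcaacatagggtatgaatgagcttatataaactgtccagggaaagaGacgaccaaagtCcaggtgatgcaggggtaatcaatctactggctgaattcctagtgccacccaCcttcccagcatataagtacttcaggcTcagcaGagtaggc
Cyp3a44: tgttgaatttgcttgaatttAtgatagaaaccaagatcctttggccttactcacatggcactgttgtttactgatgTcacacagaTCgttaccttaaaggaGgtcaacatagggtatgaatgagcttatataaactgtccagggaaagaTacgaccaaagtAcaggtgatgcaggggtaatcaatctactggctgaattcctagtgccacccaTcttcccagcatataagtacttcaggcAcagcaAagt
A1bg: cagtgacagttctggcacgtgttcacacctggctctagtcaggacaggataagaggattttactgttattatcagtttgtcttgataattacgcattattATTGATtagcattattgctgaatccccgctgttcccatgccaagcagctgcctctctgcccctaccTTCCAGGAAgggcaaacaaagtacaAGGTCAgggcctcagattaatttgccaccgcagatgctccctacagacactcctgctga
The Cyp2b pair was identical at 248 of 250 bases (99.2%). The Cyp3a pair was identical at 236 of 246 aligned bases (95.9%), with 4 bases left unaligned in each.

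The letters of 4 motifs were searched on both strands of these windows, and no matches overlapped. TTCNNNGAA, the STAT5 site, was found in 1 of the 7 promoters, A1bg, and in 7.02% of 32851 mouse promoters. ATTGAT, bound by Onecut1, was found in 3 of the 7 (A1bg, Cyp3a16 and Cyp3a44) and in 6.72% of all. AGGTCA, the nuclear receptor core hexamer, was found in 4 of the 7 (A1bg, Cyp2b9, Cyp2b13 and Cyp3a44) and in 14.0% of all. CAAAGTCCA, a site of Hnf4a, was found in Cyp3a16 and not in Cyp3a44, and in 0.384% of all. In A1bg the matches begin 150 bases (Onecut1), 84 bases (STAT5) and 59 bases (core hexamer) before the start. Promoters of both Cyp2b genes held the same hexamer, 138 bases before the start, in a stretch with no difference between them. Promoters within each pair are near-identical, so a match held by both genes of a pair is not separate evidence in the counts above.

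Esr1, the gene of the receptor, read 117 and 131 in MOER livers with PPT and 126 and 128 in MOER livers with oil. It read 145 and 162 in ERKO livers with PPT, 126 and 118 in ERKO livers with oil, 309 and 325 in wild type livers with PPT, and 347 and 365 in wild type livers with oil. It was thus lower in both modified genotypes than in wild type, though above the dimmest probe sets, and whether its probes lie in the deleted part is not known here. Array medians lay between 77.5 and 85.26. The correlation between the arrays of a group was 0.994 to 0.996, except for ERKO with oil, where it was 0.981 and 162 probe sets lay over 2-fold apart. Genes of hepatocytes were bright in every group, with 19 of 21 listed markers measured and none under the 40th percentile on both arrays of any group. The female marker Xist read 2120 to 2832 on the 12 arrays. Markers of pancreatic acinar cells (11 of 13 measured, none at 0) summed to 36603 and 46737 on the arrays of MOER livers with oil, and to between 486 and 746 on the other 10 arrays. None of the 11 was under the 40th percentile on both arrays of MOER livers with oil, against 5 to 7 in each other group. Markers of skeletal muscle (9 of 9 measured, none at 0) summed to 10546 and 10890 in ERKO livers with PPT, and to between 466 and 653 elsewhere. None of the 9 was under that percentile on both arrays of ERKO livers with PPT, against 5 in each other group. Both arrays of MOER livers with oil carried the acinar signal and both arrays of ERKO livers with PPT the muscle signal, so their part in the results on these groups was not tested. In whole-tissue RNA, fewer cells of a type and less RNA per cell cannot be told apart.

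Most of the 6 measured genes were lower with PPT than with oil in ERKO livers, and fewer were in MOER livers. Among changes that passed the test A1bg alone had opposite directions between genotypes. ERKO mice are knockouts of the receptor that PPT activates, and ERKO livers with PPT also carried the muscle markers given above. Whether the changes stem from PPT or from differences between the pools of animals was not tested. In MOER livers 3 of 6 genes fell (A1bg, Cyp2b9 and Hao2), where 4.66% of the 19119 probe sets tested were called and 2.31% were called lower. In ERKO livers 5 of 6 fell, all except Cyp3a44, where 17.9% of probe sets were called and 8.46% were called lower; with arrays centred on their medians the share of calls that were higher was 40.4%, against 52.8% here. In wild type livers 4 fell (Cyp2b9, Cyp2b13, Cyp3a44 and Hao2) and A1bg rose, where 31.0% of probe sets were called, 16.2% lower and 14.8% higher. A fall in wild type livers was not particular to the 6 genes, since 13 of 19 general hepatocyte genes tested also fell there and 1 rose. Of these hepatocyte genes 0 fell in MOER livers and 6 fell in ERKO livers. The median change of the 6 genes was -0.68 in MOER, -2.89 in ERKO and -1.06 in wild type livers on the log2(intensity + 16) scale, and the medians over all 13987 genes tested were 0.0022, 0.0016 and 0.0046. Changes were tested with limma, and a gene was called at a Benjamini-Hochberg adjusted p under 0.05 over all probe sets tested. A gene was called dim in a group when neither array exceeded the 40th percentile of its intensities, a value of 53.6 to 61.0. A fold into a dim group is given as a lower bound, with the dim arrays set no lower than that percentile.

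**Figure D1:**
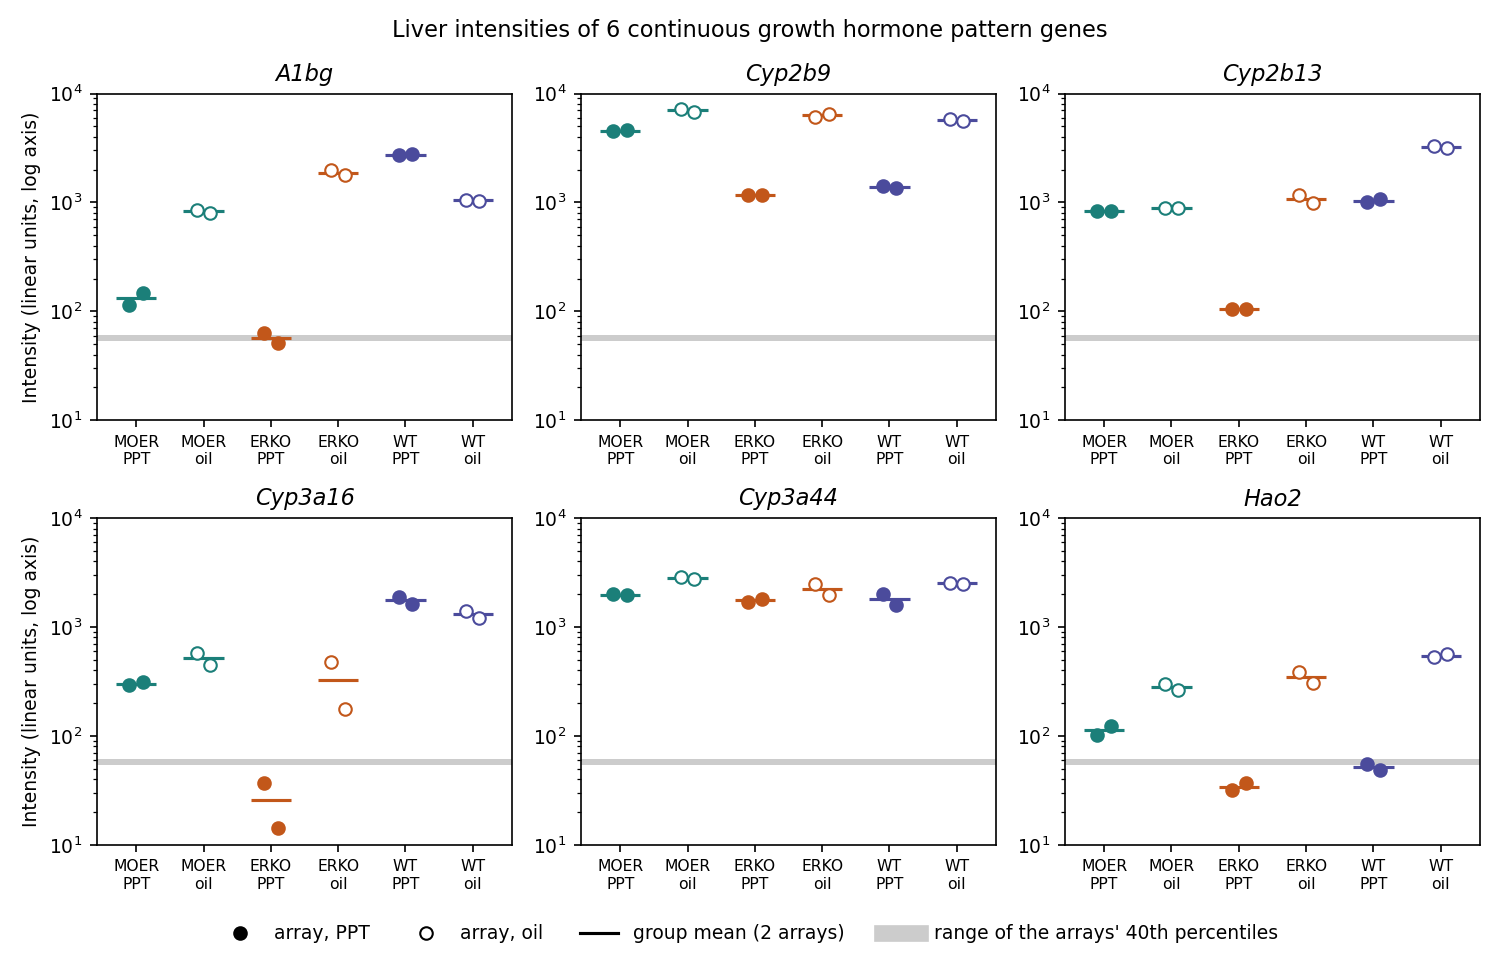
Deposited intensity (linear units, log axis) of the 6 measured genes on every array, by genotype and treatment; filled points are PPT, open points oil, short lines the mean of 2 arrays, and the grey band the range of the arrays' 40th percentiles. A1bg in ERKO livers with PPT lies at the band, Hao2 lies below it in ERKO and wild type livers with PPT, and Cyp3a44 stays between 1604 and 2898 on all 12 arrays.

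Cyp2b9, a P450 of higher levels in female liver, fell with PPT in every genotype and least in MOER livers. MOER livers read 4507 and 4582 with PPT, against 7218 and 6827 with oil. ERKO livers read 1167 and 1169.6 with PPT, against 6101 and 6484 with oil. Wild type livers read 1402 and 1362 with PPT, against 5839.7 and 5569.6 with oil. Arrays with PPT were below arrays with oil in each genotype, and MOER livers kept the highest level under PPT. The fall was 1.55-fold in MOER (log2 change -0.63 ± 0.083 SE, adjusted p = 0.00116), 5.39-fold in ERKO (-2.41 ± 0.083, adjusted p = 1.48e-08) and 4.13-fold in wild type livers (-2.03 ± 0.083, adjusted p = 3.42e-08). The MOER response was smaller than the wild type one by 1.41 ± 0.12 (adjusted p = 1.40e-05) and smaller than the ERKO one by 1.79 ± 0.12 (adjusted p = 4.50e-06). The ERKO and wild type responses differed by -0.38 ± 0.12 (adjusted p = 0.0417). This last call was lost without any 1 of the 10 arrays other than those of ERKO with oil, with adjusted p between 0.0559 and 0.152.

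Cyp2b13, whose promoter differs from that of Cyp2b9 at 2 bases, followed another course. MOER livers read 829.8 and 838 with PPT, against 889 and 879.6 with oil. ERKO livers read 106 and 106 with PPT, against 1159.8 and 995 with oil. Wild type livers read 1018 and 1065 with PPT, against 3317 and 3187 with oil. Wild type livers with oil stood above all other groups and ERKO livers with PPT below all others, and the arrays of MOER livers with PPT and with oil lay close together without overlap. The MOER change was -0.08 ± 0.093 (95% interval -0.29 to 0.12, adjusted p = 0.789). The ERKO fall was 10.2-fold (-3.16 ± 0.093, adjusted p = 3.92e-09) and the wild type fall was 3.12-fold (-1.63 ± 0.093, adjusted p = 3.98e-07). All 3 differences between responses were called: 1.54 ± 0.13 for MOER minus wild type (adjusted p = 1.53e-05), 3.08 ± 0.13 for MOER minus ERKO (adjusted p = 1.28e-07) and -1.53 ± 0.13 for ERKO minus wild type (adjusted p = 1.57e-05). Under PPT, Cyp2b13 in MOER livers was 7.86-fold its level in ERKO livers, and Cyp2b9 was 3.89-fold. Probe sequences were not used here, and how far the probe sets of the Cyp2b or the Cyp3a genes read one another's RNA was not tested.

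Cyp3a16, a female P450 of the steroid-oxidising Cyp3a family, was highest in wild type livers under either treatment. MOER livers read 289.9 and 312 with PPT, against 581 and 446 with oil. ERKO livers read 37.2 and 14.2 with PPT, against 473 and 176 with oil. Wild type livers read 1896 and 1629 with PPT, against 1405 and 1215 with oil. The arrays of ERKO livers with oil differed more from each other than those of any other group, and the SE of this gene (0.37) was about 3 times that of A1bg. Cyp3a16 fell in ERKO livers (at least 4.89-fold, into a dim group, log2 change -2.94 ± 0.37, adjusted p = 5.14e-04). It did not pass the test in MOER (-0.73 ± 0.37, adjusted p = 0.411) or in wild type livers (0.42 ± 0.37, adjusted p = 0.432), although arrays with PPT and with oil did not overlap in either genotype. The ERKO response was lower than the wild type one by a log2 difference of -3.36 ± 0.52 (adjusted p = 0.00101). The MOER response exceeded the ERKO one by 2.21 ± 0.52 (adjusted p = 0.0221), a call lost without replicate 2 of ERKO with PPT, replicate 2 of MOER with oil or either replicate of MOER with PPT (adjusted p = 0.0688 to 0.0875). MOER minus wild type was -1.15 ± 0.52 (adjusted p = 0.161), and it was called without either replicate of ERKO with oil (adjusted p = 0.0285).

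Cyp3a44, the close relative of Cyp3a16 on the same chromosome, had the narrowest range of group means of the 6 genes. MOER livers read 1998 and 1971 with PPT, against 2898 and 2741 with oil. ERKO livers read 1711 and 1800.3 with PPT, against 2474 and 1970.3 with oil. Wild type livers read 1995 and 1604 with PPT, against 2535 and 2489.9 with oil. The highest group mean was 1.61-fold the lowest, where for Cyp3a16 it was at least 29.8-fold. Arrays with PPT were below arrays with oil in each genotype, with log2 changes of -0.50 ± 0.13 in MOER (adjusted p = 0.0529), -0.33 ± 0.13 in ERKO (adjusted p = 0.103) and -0.49 ± 0.13 in wild type livers (adjusted p = 0.0139). The call in wild type was lost without replicate 1 or 2 of wild type with oil (adjusted p = 0.0746 and 0.0591) or replicate 2 of wild type with PPT (0.143). The MOER change was called without either replicate of wild type with PPT (adjusted p = 0.0487) or of ERKO with oil (0.0147), and the ERKO change without replicate 2 of ERKO with oil (0.0197). None of the differences between responses passed the test, at -0.02 (95% interval -0.42 to 0.38) for MOER minus wild type, -0.17 (-0.57 to 0.23) for MOER minus ERKO and 0.16 (-0.24 to 0.56) for ERKO minus wild type. A further 2 probe sets name Cyp3a44 among several symbols and were not used.

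Hao2, the peroxisomal oxidase, fell in every genotype. MOER livers read 103 and 123 with PPT, against 296 and 263 with oil. ERKO livers read 31.7 and 36.7 with PPT, against 383 and 305 with oil. Wild type livers read 54.8 and 48.2 with PPT, against 532 and 561 with oil. Every array with PPT was below every array with oil, and with PPT the gene was dim in ERKO and wild type livers but not in MOER livers. The fall was 2.47-fold in MOER (-1.20 ± 0.13, adjusted p = 2.68e-04), at least 5.78-fold in ERKO (-2.83 ± 0.13, adjusted p = 1.54e-07) and at least 9.78-fold in wild type livers (-3.06 ± 0.13, adjusted p = 4.36e-08). The MOER response was the smaller one, by 1.86 ± 0.18 against wild type (adjusted p = 3.98e-05) and by 1.64 ± 0.18 against ERKO (adjusted p = 2.73e-04). ERKO minus wild type was 0.23 ± 0.18 (95% interval -0.18 to 0.63, adjusted p = 0.436), a difference between values that both end in a dim group.

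A1bg, the plasma glycoprotein, had a highest group mean 47.6-fold its lowest. MOER livers read 115 and 148 with PPT, against 852 and 802 with oil. ERKO livers read 63.8 and 51.3 with PPT, against 1986 and 1777 with oil. Wild type livers read 2712 and 2762 with PPT, against 1058 and 1026 with oil. None of the 6 groups overlapped in the order wild type with PPT, ERKO with oil, wild type with oil, MOER with oil, MOER with PPT and ERKO with PPT. A1bg fell 6.29-fold in MOER (-2.52 ± 0.12, adjusted p = 6.30e-07) and 32.7-fold in ERKO (-4.69 ± 0.12, adjusted p = 1.79e-09), and rose 2.63-fold in wild type livers (1.38 ± 0.12, adjusted p = 1.08e-05). In ERKO livers with PPT only 1 of the 2 arrays read A1bg above its own 40th percentile, so folds against this group rest on a level at the edge of what was measured. The responses differed by -3.90 ± 0.18 for MOER minus wild type (adjusted p = 1.77e-07), 2.17 ± 0.18 for MOER minus ERKO (adjusted p = 2.27e-05) and -6.07 ± 0.18 for ERKO minus wild type (adjusted p = 9.40e-09).

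**Figure D2:**
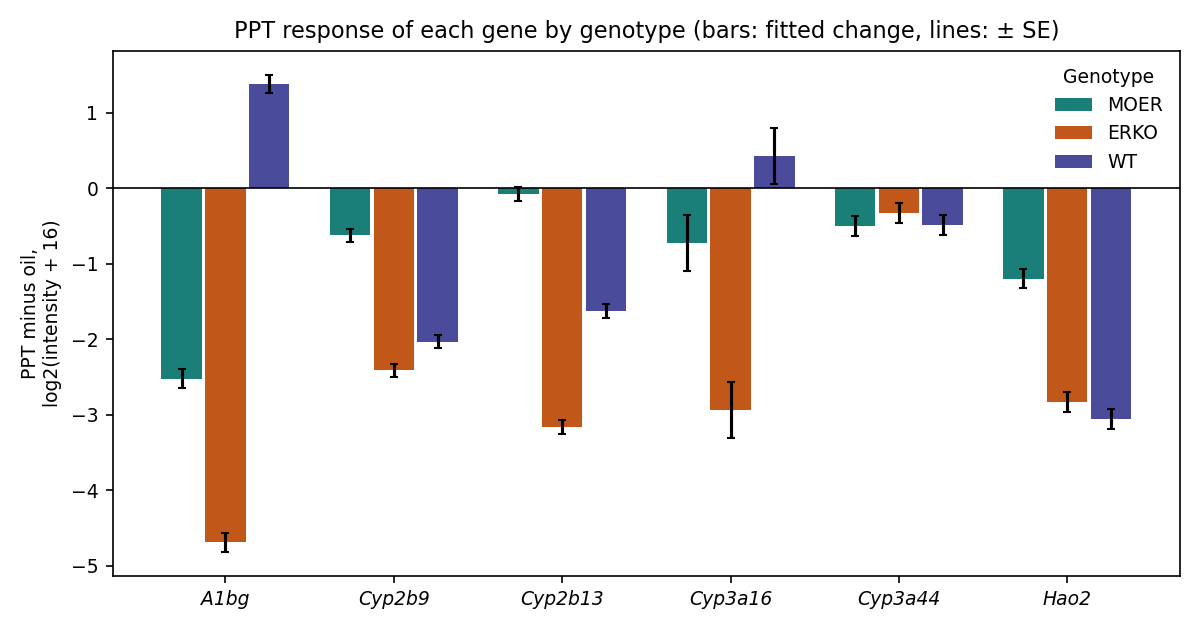
Change with PPT (PPT minus oil, log2(intensity + 16)) of each gene in MOER, ERKO and wild type livers; bars are fitted changes and lines ± SE from the fit of 12 arrays. A1bg is the gene with bars on both sides of 0 that pass the test, at 1.38 in wild type livers and -4.69 in ERKO livers, and Cyp2b13 shows -0.08 in MOER livers beside -3.16 in ERKO livers.

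In number, the MOER and wild type responses differed for 4 of 6 genes, where 21.6% of probe sets were called. The ERKO and wild type responses differed for 4 of 6 (22.3% of probe sets). The MOER and ERKO responses differed for 5 of 6, each with the fall smaller in MOER, where 11.5% of probe sets were called, 5.88% in that direction. These comparisons share groups, so their counts are not separate evidence.

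Without the agonist the genotypes already differed in Cyp2b13, Cyp3a16, Hao2 and A1bg. Under oil, MOER minus wild type was called for 2 of 6 genes, both lower, where 5.66% of probe sets were called and 3.53% were lower; centred on medians, 18.6% of calls were higher, against 37.6% here. Cyp2b13 was 3.68-fold lower (-1.86 ± 0.093, adjusted p = 8.88e-07) and Hao2 1.95-fold lower (-0.93 ± 0.13, adjusted p = 0.00256). ERKO minus wild type was called for 4 of 6, where 5.01% of probe sets were called. Cyp2b13 was 3.02-fold lower (-1.58 ± 0.093, adjusted p = 6.42e-06), Cyp3a16 4.03-fold lower (-2.11 ± 0.37, adjusted p = 0.0107) and Hao2 1.59-fold lower (-0.65 ± 0.13, adjusted p = 0.0190), whereas A1bg was 1.81-fold higher (0.84 ± 0.12, adjusted p = 0.00396). MOER minus ERKO was called for A1bg alone (2.27-fold lower in MOER, -1.17 ± 0.12, adjusted p = 6.55e-04), where 2.05% of probe sets were called. Cyp2b9 was not called in any of these, at 0.30 ± 0.083 for MOER minus wild type (adjusted p = 0.0646) and 0.14 ± 0.083 for ERKO minus wild type (adjusted p = 0.333).

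Single arrays decided some of these calls. Over all probe sets, ERKO minus wild type under oil gave 957 calls, 6329 without replicate 1 of ERKO with oil and 230 without replicate 2 of wild type with oil, so this background share moved with single arrays. In ERKO minus wild type, Hao2 and Cyp3a16 lost theirs without replicate 1 of wild type with oil (adjusted p = 0.0971 and 0.0860) or replicate 2 (0.145 and 0.0595), which left 2 of 6 genes called, and Hao2 lost its call without replicate 2 of ERKO with oil (0.0702). In MOER minus wild type, Cyp2b9 (0.30) and Cyp3a16 (-1.33) gained a call without either replicate of ERKO with oil. Their differences did not move, since that group enters this comparison only through the shared estimate of the spread. Calls over all probe sets rose as well, so the gain is not particular to these genes. Cyp3a16 was also called by limma with the replicate number as a block (adjusted p = 0.0211). In MOER minus ERKO, Cyp3a16 (1.45, adjusted p = 0.0170) and Cyp3a44 (0.51, adjusted p = 0.0314) were called without replicate 1 of ERKO with oil, and Cyp2b13 (-0.39, adjusted p = 0.0309) without replicate 2. Neutrophil markers moved with these genotype differences: under oil 6 of 9 tested were higher in MOER than in wild type livers and 7 of 9 higher in ERKO than in wild type livers. Their summed level was 1145 to 1332 in MOER, 2023 to 2751 in ERKO and 453 to 492 in wild type livers with oil (10 of 10 measured, none at 0), and their part in the result was not tested. Of the 10 markers, 4 were dim in MOER, 2 in ERKO and 6 in wild type livers with oil. With PPT the sums were 1353 to 1405 in MOER, 1538 to 1624 in ERKO and 4249 to 4321 in wild type livers, with 5, 5 and 4 markers dim. The higher wild type sum does not stand for most markers. Of the 9 tested under PPT, 4 were called higher and 2 lower in MOER than in wild type livers. In ERKO livers 5 were called higher and 1 lower than in wild type livers. Of the 19 general hepatocyte genes tested, 0 were called by limma in MOER minus wild type under oil and 0 in ERKO minus wild type, with 2 and 4 at an unadjusted p under 0.05.

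Under PPT the genotypes stood further apart. MOER minus wild type was called for 5 of 6 genes, where 35.5% of probe sets were called. Cyp2b9 was 3.29-fold higher in MOER (1.71 ± 0.083, adjusted p = 1.12e-07) and Hao2 at least 2.01-fold higher (0.93 ± 0.13, adjusted p = 2.37e-04), while A1bg was 20.8-fold lower (-4.23 ± 0.12, adjusted p = 3.14e-09) and Cyp3a16 5.86-fold lower (-2.49 ± 0.37, adjusted p = 3.77e-04). Cyp2b13 was 1.25-fold lower (-0.31 ± 0.093, adjusted p = 0.0225), and that call was lost without any 1 of the 4 arrays compared (adjusted p = 0.0682 to 0.138). ERKO minus wild type was called for 4 of 6, where 32.1% of probe sets were called. A1bg was 47.6-fold lower in ERKO (-5.23 ± 0.12, adjusted p = 4.92e-10), Cyp3a16 at least 29.8-fold lower (-5.47 ± 0.37, adjusted p = 1.11e-06) and Cyp2b13 9.81-fold lower (-3.11 ± 0.093, adjusted p = 1.89e-09). Hao2 differed by -0.43 ± 0.13 (adjusted p = 0.0275) with both groups dim, and lost the call without any 1 of the 4 arrays compared (adjusted p = 0.0566 to 0.162). Cyp2b9 differed by -0.24 ± 0.083 (adjusted p = 0.0503) and was called without either replicate of ERKO with oil (adjusted p = 0.0180). MOER minus ERKO was called for 5 of 6, where 22.1% of probe sets were called in either direction, with ratios of the MOER to the ERKO level of 2.29 for A1bg, 3.89 for Cyp2b9, 7.86 for Cyp2b13, at least 1.91 for Hao2 and at least 5.09 for Cyp3a16. Cyp3a44 did not pass the test in any of the 3, with 95% intervals of -0.13 to 0.43, -0.31 to 0.26 and -0.11 to 0.46 in that order.

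**Figure D3:**
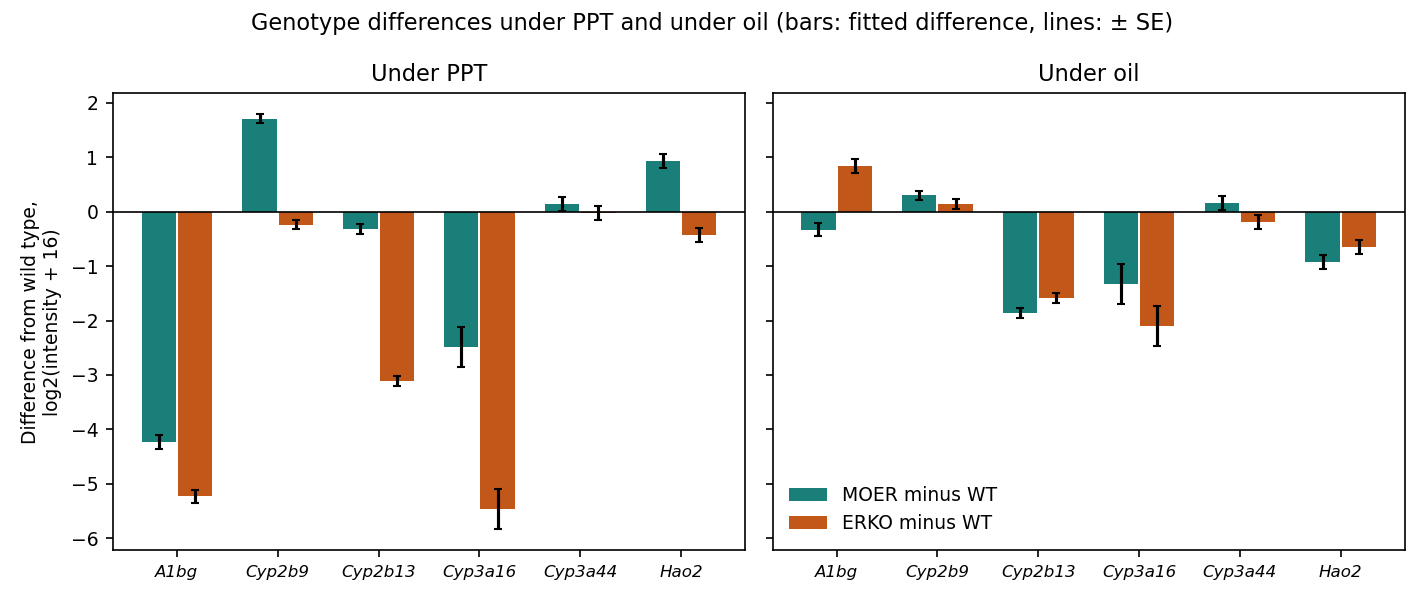
Difference of MOER and of ERKO livers from wild type livers (log2(intensity + 16)) for each gene under PPT, left, and under oil, right; bars are fitted differences and lines ± SE. Under PPT, A1bg and Cyp3a16 lie below wild type in both genotypes and Cyp2b9 lies 1.71 above it in MOER livers, while under oil the largest difference of Cyp2b13 is -1.86.

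Relatives by sequence were set beside the members. Of 14 listed, 10 were measured and tested. In MOER livers 1 rose and 3 fell with PPT, in ERKO livers 1 rose and 5 fell, and in wild type livers 7 fell, with median changes of -0.29, -0.27 and -1.34. Of all probe sets 2.31%, 8.46% and 16.2% were called lower, in that order. Cyp2b10, the phenobarbital-inducible P450 of this subfamily, read 1189 and 1040.2 in MOER livers with PPT against 1742 and 1676 with oil, and 673 and 722 in ERKO livers with PPT against 1134 and 1100.4 with oil. In wild type livers it read 87.4 and 84.3 with PPT against 1401 and 1373 with oil. Its log2 change was -0.61 in MOER (adjusted p = 0.00268), -0.67 in ERKO (adjusted p = 9.84e-04) and -3.78 in wild type livers (adjusted p = 1.77e-09), where it differed from the other genotypes by more than 3 on the log2 scale (3.17 for MOER minus wild type, adjusted p = 9.45e-08). Cyp2b13, by contrast, fell further in ERKO than in wild type livers, by the difference of -1.53 given above. Cyp2b19 changed by -0.32 in MOER (adjusted p = 0.364), -1.66 in ERKO (adjusted p = 5.15e-05) and -1.51 in wild type livers (adjusted p = 2.29e-05), ending in a dim group in ERKO and wild type. Cyp2b23 changed by -0.44 in MOER (adjusted p = 0.0443), -0.12 in ERKO (0.482) and -0.23 in wild type livers (0.135).

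Among the Cyp3a relatives Cyp3a13 was the gene that rose in MOER livers. It read 3427 and 3729 with PPT against 1135 and 1017 with oil in MOER livers, 1374 and 1389 against 3763 and 3473 in ERKO livers, and 1187 and 1199.98 against 2979 and 2932 in wild type livers. Its changes were 1.72 in MOER (adjusted p = 1.27e-06), -1.38 in ERKO (adjusted p = 4.15e-06) and -1.30 in wild type livers (adjusted p = 1.85e-06). Cyp3a25 and Cyp3a57 fell in wild type livers (-1.61 and -1.37, adjusted p = 5.56e-06 and 2.39e-05) and did not pass the test in MOER or ERKO livers. Cyp3a11, the major Cyp3a enzyme of mouse liver, changed by -0.26 in MOER (adjusted p = 0.399), -0.15 in ERKO (0.476) and -0.38 in wild type livers (0.0473). Of the Cyp2a genes, Cyp2a22 fell in all 3 genotypes (-1.22 in MOER, -1.98 in ERKO and -2.31 in wild type livers), and Cyp2a12 fell in ERKO livers (-0.35, adjusted p = 0.0157). Hao1, the glycolate oxidase related to Hao2, rose by 0.38 in ERKO livers (adjusted p = 0.0185) and did not pass the test in MOER (0.08) or wild type livers (0.13). Under oil, Cyp2a22 was lower than in wild type livers in MOER (-1.95) and in ERKO (-2.03), and Cyp3a13 was lower in MOER livers (-1.45).

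**Figure D4:**
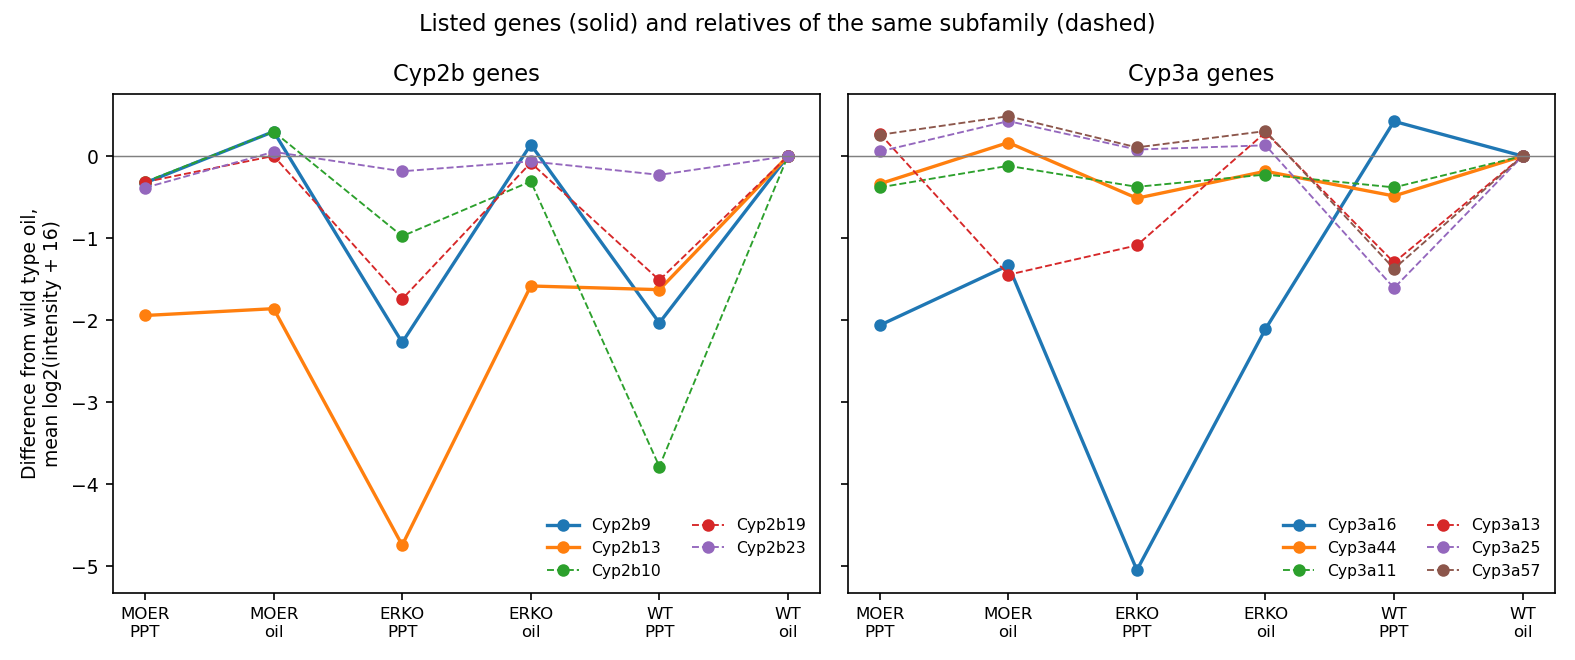
Mean log2(intensity + 16) of each Cyp2b gene, left, and Cyp3a gene, right, in the 6 groups, as the difference from wild type livers with oil; solid lines are the listed genes, dashed lines their relatives, and points the mean of 2 arrays. Cyp2b13 and Cyp3a16 dip furthest in ERKO livers with PPT, Cyp2b10 in wild type livers with PPT, and Cyp3a13 is the dashed line that is high in MOER livers with PPT and low in MOER livers with oil.

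Other genes of the continuous, female-type pattern also mostly fell with PPT. The list held 26 symbols, of which 18 were tested, and Cyp2a22 is also among the relatives above. In MOER livers 3 rose and 11 fell, in ERKO livers 15 fell, and in wild type livers 4 rose and 12 fell. The medians were -0.56, -1.03 and -1.09, and 2.31%, 8.46% and 16.2% of all probe sets were called lower, in that order. In wild type livers such a fall was not particular to this list, since 13 of the 19 general hepatocyte genes tested also fell there and 1 rose. Hamp2, of the hepcidin family, changed by -3.01 in MOER (adjusted p = 2.86e-07), -1.68 in ERKO (adjusted p = 1.91e-05) and -3.63 in wild type livers (adjusted p = 1.69e-08). Slc22a26, an organic anion transporter, changed by -0.51 in MOER (adjusted p = 0.00821), -2.39 in ERKO (adjusted p = 3.04e-08) and -1.38 in wild type livers (adjusted p = 1.04e-06). Sult3a1, a sulphotransferase, changed by -0.72 in MOER, -2.45 in ERKO and 0.82 in wild type livers (adjusted p = 0.00748, 4.46e-07 and 5.18e-04), the same signs as A1bg in all 3. Cyp17a1, the steroid hydroxylase and lyase, went against the list in MOER and wild type livers (3.42 and 2.66, adjusted p = 5.01e-09 and 1.35e-08) and fell in ERKO livers (-0.48, adjusted p = 0.00712). Sult1e1, the oestrogen sulphotransferase, rose in MOER livers (3.16, adjusted p = 1.05e-07) and in wild type livers (0.82, adjusted p = 4.29e-04).

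Genes of the pulsatile, male-type pattern mostly rose in ERKO livers and mostly fell, where called, in MOER and wild type livers. Of 32 symbols 26 were tested. In MOER livers 3 rose and 12 fell, in ERKO livers 15 rose and 2 fell, and in wild type livers 5 rose and 12 fell, with medians of -0.20, 0.43 and -0.25. Of all probe sets, 4.66%, 17.9% and 31.0% were called in that order, and 50.4%, 52.8% and 47.7% of these calls were higher. Cyp4a12a and Cyp4a12b, male P450 enzymes of fatty acids, changed by 3.17 and 3.29 in ERKO livers (adjusted p = 7.89e-07 and 2.51e-08), Slco1a1, an organic anion transporter, by 3.31 (adjusted p = 1.28e-07) and Elovl3, a fatty acid elongase, by 3.26 (adjusted p = 1.57e-06). In MOER livers Slco1a1 changed by -2.29 (adjusted p = 6.12e-06) and Elovl3 at least 1.68-fold, into a dim group (adjusted p = 6.16e-04). In wild type livers Cyp7b1, an oxysterol hydroxylase, rose (3.19, adjusted p = 5.13e-09), Hsd3b2, a steroid dehydrogenase, fell (-3.85, adjusted p = 2.11e-07) and Elovl3 fell at least 2.17-fold, into a dim group (adjusted p = 8.42e-07). With PPT, Hsd3b2 read 97.5 and 49.4 in wild type livers and Slco1a1 53.5 and 78.25 in MOER livers. In each case 1 of the 2 arrays lay under its own 40th percentile, so the sizes of these changes rest on levels at the edge of what was measured. Under oil 10 of 26 were higher and 2 lower in MOER than in wild type livers, and 8 were higher in ERKO than in wild type livers. Over all probe sets 5.66% and 5.01% were called in these comparisons, and 37.6% and 44.7% of those calls were higher. Cyp4a12a read 1434 and 1313 in MOER and 525 and 479.95 in ERKO livers with oil, against 30.2 and 13.9 in wild type livers with oil, where it was dim. The ERKO livers with PPT that held the highest male-pattern levels are also those with the muscle markers given above. Of the 19 general hepatocyte genes, 1 rose in MOER livers with PPT, 6 fell in ERKO livers, and 1 rose and 13 fell in wild type livers, with medians of -0.02, -0.07 and -0.40.

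**Figure D5:**
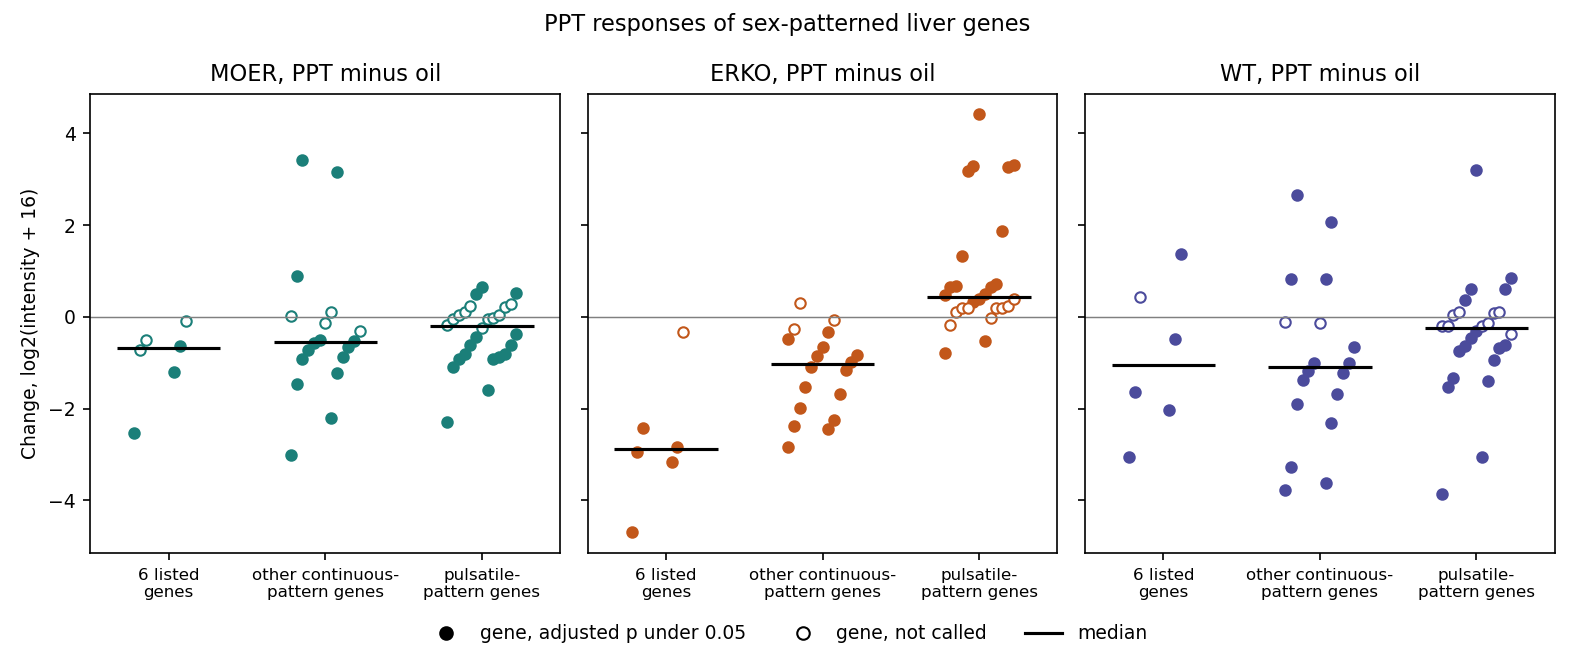
Change with PPT (PPT minus oil, log2(intensity + 16)) of each tested gene in the 6 listed genes, 18 other continuous-pattern genes and 26 pulsatile-pattern genes, in MOER, ERKO and wild type livers; filled points passed the test (adjusted p under 0.05), open points did not, and lines are medians. In ERKO livers the medians are -2.89, -1.03 and 0.43, and in MOER and wild type livers all 3 medians lie below 0.

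Of 20 listed genes of growth hormone signalling 17 were tested, and 3 rose and 2 fell in MOER livers, 2 rose and 3 fell in ERKO livers, and 5 rose and 4 fell in wild type livers. Over all probe sets 4.66%, 17.9% and 31.0% were called in either direction, in that order. Socs2, a feedback inhibitor that growth hormone induces, read 85.7 and 107 in MOER livers with PPT against 315 and 288 with oil, and 643 and 681 in wild type livers with PPT against 433 and 368 with oil. Its log2 change was -1.51 in MOER livers (adjusted p = 3.03e-05) and 0.71 in wild type livers (adjusted p = 0.00113). In ERKO livers it read 259 and 265 with PPT against 288 and 249 with oil (-0.03, adjusted p = 0.891). Cish, another such inhibitor, fell into a dim group in MOER (at least 1.23-fold, adjusted p = 8.99e-04) and ERKO livers (at least 1.43-fold, adjusted p = 0.00465). Igfbp1, a carrier of insulin-like growth factors, rose in all 3 genotypes (0.87 in MOER, 1.06 in ERKO and 2.44 in wild type livers). Stat5a rose in wild type livers (1.68, adjusted p = 1.90e-06). Stat5b, the main mediator in liver, was lower under oil than in wild type livers in MOER (-0.61, adjusted p = 0.00552) and in ERKO (-0.66, adjusted p = 0.00365).

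Among 18 tested transcription factors and cofactors of sex-biased liver expression, 2 rose and 3 fell in MOER livers, 1 rose and 8 fell in ERKO livers, and 3 rose and 11 fell in wild type livers. The shares of all probe sets called lower were 2.31%, 8.46% and 16.2%, in that order. Bcl6, a repressor of female-biased genes in male liver, read 248 and 261 in MOER livers with PPT against 50.4 and 51.0 with oil, 156 and 167 in ERKO livers with PPT against 64.7 and 59.1 with oil, and 106 and 99.3 in wild type livers with PPT against 70.9 and 73.6 with oil. It rose in each genotype, at least 4.24-fold in MOER (adjusted p = 1.97e-07), with log2 changes of 1.19 in ERKO (adjusted p = 8.39e-06) and 0.43 in wild type livers (adjusted p = 0.00319). Onecut1, a liver factor known from rats for higher levels in females, fell in MOER (-1.34, adjusted p = 5.38e-05) and wild type livers (at least 4.83-fold, adjusted p = 2.61e-07) and did not pass the test in ERKO livers (-0.25, adjusted p = 0.173). Nr1i3, the nuclear receptor that drives Cyp2b10, fell in ERKO (-0.99, adjusted p = 5.48e-05) and wild type livers (-0.98, adjusted p = 1.34e-05) and did not pass the test in MOER livers (0.08, adjusted p = 0.776).

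Over the 12 arrays the members did not all run together. Pearson's r between members lay between 0.295 (A1bg with Cyp2b9) and 0.906 (Cyp2b9 with Hao2), and it was 0.647 within the Cyp2b pair and 0.375 within the Cyp3a pair. These are descriptions, since the 12 arrays form 6 groups of 2. Of 1735 tested genes whose group means spanned at least 1 on the log2 scale, Cyp2b9 was followed most closely by Cyp2b19 (r = 0.984), Slc22a26 (0.981) and Ces1g, a carboxylesterase (0.973). Cyp2b13 was followed by Gsto1, a glutathione transferase (0.953), then by the clotting factor gene F12 and by Pm20d1 (0.942). For Hao2 they were Vnn3, a pantetheinase (0.973), Dpys, of pyrimidine breakdown (0.964), and the liver pyruvate kinase gene Pklr (0.953). Cyp3a16 was closest to Sult3a1 (0.971), Uroc1, of histidine breakdown (0.964), and Tkfc, a triose kinase (0.964). A1bg was closest to Anxa5, an annexin (0.947), Snord14e, a small nucleolar RNA (0.940), and Ephx1, an epoxide hydrolase (0.937). Cyp3a44 was closest to Cd74 (0.953), H2-Ab1 (0.939) and H2-Eb1 (0.926), genes of antigen presentation on class II molecules. Macrophage and Kupffer cell markers, which mark cells that carry such molecules, summed to 12597 to 12701 in MOER livers with PPT against 11184 to 11273 with oil, 8552 to 8686 in ERKO livers with PPT against 9614 to 11109 with oil, and 11451 to 11495 in wild type livers with PPT against 9639 to 9881 with oil (11 of 11 measured, none at 0), and their part in the result was not tested.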

How the data were processed

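RNA of whole liver was measured on 12 arrays in 6 groups of 2. The deposited table holds 1 linear intensity per probe set and array, for 28815 probe sets. The sources used here do not say how the authors summarised probes or scaled arrays. Per the labels' protocols the authors used Cyber-T with a minimum change of 2-fold. Deposited intensities were not scaled again and were analysed as log2(intensity + 16). The test covered the 19119 probe sets that exceeded the array's 40th percentile on at least 2 arrays, and a gene was read from its single-symbol probe set of highest mean. Array number limits the precision; depth does not apply.

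One fit of 6 group means (limma 3.58.1, R 4.3.3, lmFit and eBayes, two-sided, 6 residual and 10.47 total degrees of freedom) gave 12 contrasts with Benjamini-Hochberg adjustment over all probe sets tested; the script was tested on simulated data. Errors are SE of the fit. Promoters were taken from RefSeq (GRCm38.p6) and aligned with Biopython 1.88.

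The members and gene lists were chosen with earlier results of these data known, and the definition of a dim group after seeing the values. Named were all members, all measured relatives, at most 4 called genes of smallest adjusted p per list and contrast, and the 3 genes most like each member. Alternatives were pseudocounts of 1 and 64, no filter, a filter at the 60th percentile, median centring, quantile normalization, a trended fit, a replicate block, leaving out each array, and a Cyber-T-style test.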

Additional observations from a re-analysis of the deposited data

Results flagged for a closer look

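The response to PPT (PPT minus oil, log2(intensity + 16)) was compared between genotypes by testing the difference itself in the limma fit, with Benjamini-Hochberg adjustment over all probe sets. For 5 of the 6 measured genes at least 1 of the 3 differences was called. Of all probe sets, 21.6% were called for MOER minus wild type, 22.3% for ERKO minus wild type and 11.5% for MOER minus ERKO. The share of probe sets with any of the 3 called was not computed, and it is no smaller than the largest of these. For A1bg MOER minus wild type was -3.90, MOER minus ERKO 2.17 and ERKO minus wild type -6.07. For Cyp2b13 these differences were 1.54, 3.08 and -1.53. For Cyp2b9 they were 1.41, 1.79 and -0.38, the last at adjusted p = 0.0417. For Hao2 MOER minus wild type was 1.86 and MOER minus ERKO 1.64. For Cyp3a16 MOER minus ERKO was 2.21 and ERKO minus wild type -3.36. Hao2 was dim in ERKO and wild type livers with PPT, and Cyp3a16 in ERKO livers with PPT, so the sizes of their differences depend on the added 16. A1bg in ERKO livers with PPT lay under the 40th percentile on 1 of the 2 arrays, so the sizes of its differences that involve ERKO depend on it as well. The 3 differences of a gene share arrays.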

How the results depend on the processing

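Over the alternatives run, no called value of a member changed direction. Leaving out single arrays gave 864 values for the members, of which 818 kept their side of the threshold, 30 lost a call and 16 gained one; the other alternatives gave 576, of which 552 kept it, 4 lost a call and 20 gained one. The number of the 6 genes called for MOER minus wild type under oil was 2, where 1082 of 19119 probe sets were called. It was 4 with a pseudocount of 64 (1439 of 19119 probe sets), with the filter at the 60th percentile (1486 of 13123) and with the trended fit (1597 of 19119). Each of these raised the count of genes by adding Cyp2b9 (higher) and Cyp3a16 (lower), and the cause was not tested. Without single arrays this count ran from 2 to 4, that of ERKO minus wild type under oil from 2 to 4 and that of MOER minus ERKO under oil from 1 to 3. The Cyber-T-style test, at p under 1e-04 and a change of at least 2-fold, called 2 genes in MOER, 5 in ERKO and 4 in wild type livers. The share of all probe sets that this test called is not given here, so these counts stand without a background. Cyp3a44 in MOER livers was called with a pseudocount of 64 (adjusted p = 0.0199), the 60th percentile filter (0.0302), median centring (0.0405), quantile normalization (0.0334) and the trended fit (0.0101), and in ERKO livers with quantile normalization (0.0487) and the trended fit (0.0429). Cyp2b9 in ERKO minus wild type under PPT was called with a pseudocount of 64 (0.0306), the 60th percentile filter (0.0269), centring (0.0266) and the trended fit (0.00995), and Cyp3a16 in MOER minus wild type under oil with centring (0.0364). The ERKO minus wild type response of Cyp2b9 lost its call without a filter (0.0904) and with quantile normalization (0.0547), and Hao2 in ERKO minus wild type under PPT with a pseudocount of 64 (0.0974).

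The labels do not say that replicate numbers mark a shared batch. The correlation of deviations between same-numbered arrays lay between -0.147 and 0.377 and exceeded 0.1 in 5 of 15 pairs of groups, among them all 3 pairs of oil groups (0.276 to 0.377); with 2 arrays a group this was not tested further. With the number as a replicate block, Cyp2b9 lost the ERKO minus wild type response (adjusted p = 0.0544), and Cyp3a44 in MOER livers (0.0389) and Cyp3a16 for MOER minus wild type under oil (0.0211) were called. Over all probe sets and with all arrays kept, calls moved by more than 1.5 times for the MOER response (890, and 1471 with quantile normalization), for ERKO minus wild type under oil (957, and 552 without a filter, 1626 with trend and 1674 with quantile normalization), for MOER minus wild type under oil (1082, and 696 without a filter and 1716 with centring), for MOER minus ERKO under oil (392, and 236, 767 with trend and 813 with quantile normalization) and for the MOER minus ERKO response (2193, and 3502 with quantile normalization). Without single arrays the calls ranged further: 437 to 1672 for the MOER response, 1200 to 5346 for the ERKO response (3430), 230 to 6329 for ERKO minus wild type, 249 to 3332 for MOER minus wild type and 123 to 2151 for MOER minus ERKO under oil, 4007 to 7921, 4418 to 8710 and 1848 to 6211 for the same 3 under PPT (6133, 6794 and 4225), and 2873 to 6735 for the ERKO minus wild type response (4266) and 1078 to 4802 for the MOER minus ERKO response. The highest count came without an array of ERKO with oil in each of these 10. Each measured gene has 1 single-symbol probe set, so a mean over probe sets was not run.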
